A study of Homo sapiens with 12 samples.

Results

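The comparison described here is the difference between the tetracycline responses of 2 stable HEK lines, a human embryonic kidney cell line, each carrying a tetracycline-inducible TRPM7 transgene. The WT line carried the wild-type channel, and the mutant line carried TRPM7DKD, a channel without its C-terminal kinase domain that the submitters regard as nonfunctional and used to account for effects of the inducer itself. Each line was measured without and with the inducer, which gives 4 groups of 3 Affymetrix arrays of total RNA. All groups grew with 5 ug/mL blasticidin and all carried a transgene, so the untreated groups are transgenic lines without inducer and not parental cells. Tetracycline was given as 1 ug, with no volume stated, for 72 hours. Each construct is represented by 1 line, and nothing in the labels tells if a line is a single clone or if replicate arrays are separate cultures. The p-values therefore measure the spread between these samples alone, which may be technical.

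For every probe set (short probes that read a transcript together) the change of the WT line with tetracycline and the change of the mutant line with tetracycline were taken on the log2 signal, and the second was subtracted from the first. A positive difference means that the signal moved up more, or down less, in the WT line. The members were the probe sets whose lowest group mean was above 8 on the log2 scale, which was 15855 of the 54675 in the table and 53.6% of the 29553 that were tested. These bright probe sets covered 8928 genes by the platform annotation. A probe set with a group mean under 8 is outside this selection. "Called" below means an adjusted p under 0.05 over all tested probe sets in the limma fit, and ± after a change is its standard error (SE).

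TRPM7 joins an ion channel that passes magnesium, calcium and zinc to a protein kinase in the same chain, and it is widely expressed. Cells under amino acid, endoplasmic reticulum (ER) or heme stress phosphorylate the initiation factor eIF2, which slows general translation while the transcription factor ATF4 is made and switches on ATF3, DDIT3 and genes of amino acid supply. This integrated stress response overlaps with the unfolded protein response of the ER, with p53-linked arrest genes such as CDKN1A, and with rapid growth factor and calcium responses of the immediate early genes.

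All arrays had the same trimmed mean signal, 500, so total brightness carries no information on the lines. The median SD of a bright probe set was 0.228 in the untreated WT group and 0.247 in the WT group with tetracycline, against 0.123 and 0.14 in the mutant groups, while the fit used 1 spread for all groups. The actin control ratio, 3′ over 5′ signal on the log2 scale, averaged 0.987 and 1.114 in the WT groups and 0.25 and 0.268 in the mutant groups. Its difference between the responses was 0.109 (2-sided exact permutation within lines, p = 0.645, smallest possible 0.005), and 4 other control measures gave exact p between 0.625 and 0.88. One of these, the 18S ribosomal RNA signal, averaged 8.792 and 8.676 in the WT groups and 7.184 and 6.709 in the mutant groups. Permutation within lines does not compare the levels of the lines, so the gaps in the actin ratio and the 18S signal were not tested. TRPM7 itself had 3 tested probe sets, none of them bright, with differences of -0.64, 0.92 and -0.77 (adjusted p = 0.516, 0.644 and 0.742). In that order the WT changes were -0.85, 0.11 and -2.0 (limma, adjusted p = 0.0643, 0.915 and 0.0411). The third set was thus called lower with tetracycline in the WT line, and no set was called higher. Its WT signal with tetracycline averaged 4.99, below the median of the table, 6.39. The mutant changes were -0.2, -0.8 and -1.24 (limma, unadjusted p = 0.505, 0.177 and 0.0687). Whether these sets read the transgene was not tested, so these arrays do not check the labels through it. Of 10 HEK markers matched to the array, 7 were bright in all groups, including VIM, KRT8, KRT18 and CDH2, while LHX1 was dim at 5.15 to 6.11. Of 13 matched markers of blood, endothelial, fibroblast and liver cells, 1 was bright, the collagen gene COL1A1 at 9.31 to 10.23, and 3 exceeded the median of the table in any group. The log2 of their summed signal was 10.74 to 10.8 on the WT arrays with tetracycline, 10.07 to 10.47 on the untreated WT arrays and 10.04 to 10.57 on the mutant arrays, and the summed HEK markers were also highest on the WT arrays with tetracycline, at 16.04 to 16.34 against 15.74 to 15.81 untreated and 15.78 to 16.03 on the mutant arrays. A sum of linear signals mostly follows its brightest members. Among the markers of other cells this was COL1A1, with HBB next at 6.83 to 7.2. Among the HEK markers it was VIM at 14.85 to 15.5, with NEFL next at 13.41 to 13.86. The part of either sum in the results was not tested.

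Of the bright probe sets 23 were called for the difference, 11 higher and 12 lower, for 20 named genes (GFPT1 on 2 probe sets) and a pair of probe sets without a gene symbol. They changed with tetracycline by 1.0 to 2.43 log2 units in size in the WT line, and stood within 0.61 of their untreated level in the mutant line. The higher genes were CCND2, LGALS1, DDIT3, EIF1, GFPT1, CDKN1A, ATF3, NFIL3, KRT10 and FTL. The lower genes were NDUFA7, PTP4A2, PAWR, MARCKS, PSIP1, IRS4, FAM199X, PDHA1, CYP4X1 and WDR4. Over all tested probe sets 41 were called (0.139%), 19 higher (0.0643%) and 22 lower (0.0744%), so the bright share of 0.145% was near the background. In all 23, every WT array with tetracycline lay beyond all 9 other arrays, and the change of the mutant line was smaller in size than that of the WT line. Among all 15855 bright probe sets the WT arrays with tetracycline lay above the other 9 for 1240 and below them for 1216. A call for the difference favours both traits, so they are no separate support. The adjusted p of the calls ran from 0.0329 to 0.0494, just inside the threshold, and the next value was 0.0523.

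Which probe sets passed depended on single arrays, while the direction of each difference did not. Without WT tetracycline replicate 1 there were 1881 bright calls, all 23 among them, and without WT untreated replicate 1 there were 35. Without WT tetracycline replicate 2 there were 3, and without WT untreated replicate 2 there were 17. Leaving out WT untreated replicate 3, WT tetracycline replicate 3 or any of the 6 mutant arrays gave 0 calls with limma, with between 1982 and 2327 bright probe sets at an unadjusted p under 0.05. Across 23 other settings the 23 differences kept their sign in 529 of 529 values, and the smallest in size was 0.698. Settings that alter only the filter, the weights by line, the trend, the block or the replicate 3 term leave a difference as it is. The probe sets were also selected for large differences on these same arrays, so the kept signs are no separate support. With limma weights that let each line have its own spread, 104 bright probe sets were called, all 23 among them.

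The shape of the whole set shows how unequal the lines were. Among bright probe sets the percentiles 5 and 95 of the WT change were -0.846 and 0.757, and those of the mutant change -0.259 and 0.264. A change of more than 1 in size was seen for 778 in the WT line and for 3 in the mutant line. The WT line had 3265 bright calls of its own, 1519 higher and 1746 lower (16.9% of all tested probe sets were called). The mutant line had 0 in limma (0% of all tested), with 281 bright probe sets (1.77%) at an unadjusted p under 0.05. These counts use 1 spread for all groups, which is wide for the mutant arrays, so the mutant p-values in this text are conservative. With weights by line, 1053 bright probe sets of the mutant line were at that level and 1 was called, against 1672 calls in the WT line. The difference exceeded 1 in size for 517 bright probe sets, 204 higher and 313 lower, of which 495 were not called. Its median SE was 0.263, and most differences of that size did not pass.

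Although small, the changes of the mutant line leaned the way of the WT line. The 1519 bright probe sets called higher in the WT line had a median change of 0.738 there and of 0.132 in the mutant line, where 1289 (84.9%) were above 0. The 1746 called lower had medians of -0.789 and -0.11, and 1431 (82%) were below 0 in the mutant line, against 51.1% of all bright probe sets above 0. The lines share no arrays. Across all 15855 the changes correlated at Pearson r = 0.468 and Spearman rho = 0.438, a description across probe sets that share arrays and are not independent replicates. With quantile normalization the shares were 84.9% and 82.1%.

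**Figure D1:**
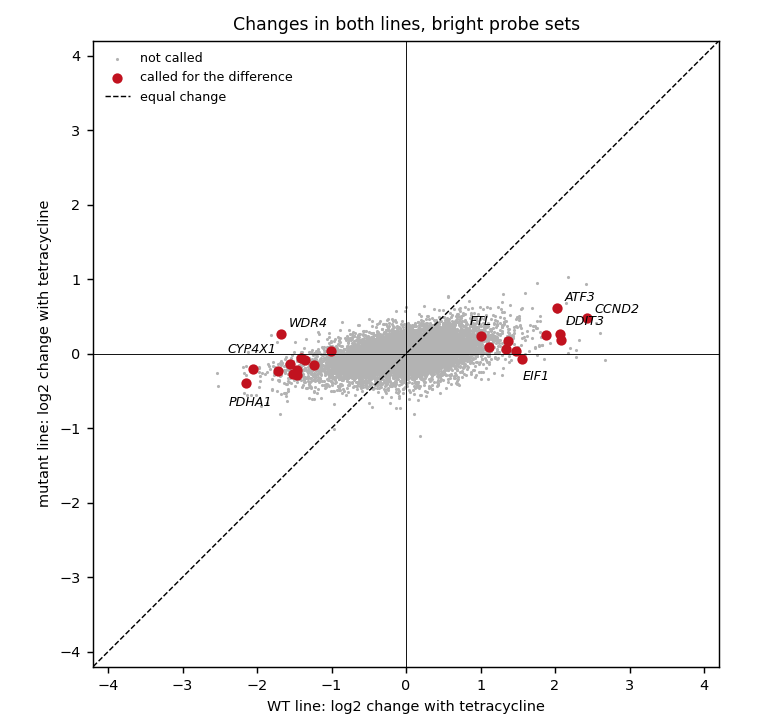
Log2 change with tetracycline in the WT line (horizontal axis) against that in the mutant line (vertical axis) for the 15855 bright probe sets, grey where not called and red for the 23 called for the difference, with a dashed line of equal change. The cloud is wide along the WT axis and flat along the mutant axis, and the red points lie at its left and right ends with mutant changes between -0.39 and 0.61.

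Transcription factors of the stress response were among the genes called higher. DDIT3 (probe set 209383_at), the factor CHOP that follows ATF4 and is linked to cell death under prolonged ER stress, read 9.03, 9.31 and 8.73 on the untreated WT arrays and 11.17, 11.2 and 10.91 with tetracycline (replicates 1 to 3). On the mutant arrays it read 9.43, 9.31 and 9.71 untreated and 9.48, 9.74 and 10.0 with tetracycline. The WT arrays with tetracycline stood 0.9 above the highest of the others, and the mutant groups overlapped. The difference was 1.81 ± 0.27 (adjusted p = 0.0329), a 3.5-fold larger ratio in the WT line, from a WT change of 2.06 and a mutant change of 0.26.

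ATF3 (202672_s_at), a stress-induced repressor and activator of the same bZIP family, had the largest mutant change among the bright calls. It read 11.2, 11.27 and 10.7 untreated and 12.76, 13.2 and 13.31 with tetracycline in the WT line. The mutant line gave 11.45, 11.4 and 11.32 untreated and 12.25, 11.96 and 11.79 with tetracycline. Every treated array of either line was above every untreated array, and the WT arrays were the highest. The mutant change of 0.61 had an unadjusted p of 0.00375 and an adjusted p of 1, the WT change was 2.03 ± 0.178, and the difference was 1.42 ± 0.251 (adjusted p = 0.0485). A second bright ATF3 probe set gave 1.72 (adjusted p = 0.0842).

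NFIL3 (203574_at), a bZIP repressor known from the circadian clock and cell survival, showed the pattern of DDIT3. It read 9.71, 10.12 and 9.83 untreated and 11.16, 11.12 and 11.42 with tetracycline in the WT line, against 10.02, 10.22 and 10.01 and then 10.06, 10.21 and 10.16 in the mutant line. The 9 other arrays lay within a narrow band that the WT arrays with tetracycline exceeded by 0.91, and the difference was 1.29 ± 0.213 (adjusted p = 0.0405).

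Since ATF3 and DDIT3 were both called higher, the RefSeq promoters (GRCh38.p14, 250 bases before to 50 after the start) were searched for the letters TGATGNAA, the element bound by ATF4 with C/EBP proteins, on both strands. Only the first promoter listed for a gene entered the shares given here, although DDIT3 and ATF3 had 2 starts each. Of the 10 called-higher genes 8 had a promoter in the table, and 1 of them, ATF3, held the letters (12.5%). They were in 0 of 10 called-lower genes, in 3 of 21 bright integrated stress response genes (14.3%; ASNS, ATF3 and SLC3A2), in 1.63% of 7540 bright genes and in 3.67% of all 27305 promoters. The ATF3 stretch upstream of the start is shown, since it is the called gene that holds them: chr1:212565157-212565406 of GRCh38.p14, plus strand, 5′ to 3′, with the match in capitals, 191 bases before the start.
ATF3: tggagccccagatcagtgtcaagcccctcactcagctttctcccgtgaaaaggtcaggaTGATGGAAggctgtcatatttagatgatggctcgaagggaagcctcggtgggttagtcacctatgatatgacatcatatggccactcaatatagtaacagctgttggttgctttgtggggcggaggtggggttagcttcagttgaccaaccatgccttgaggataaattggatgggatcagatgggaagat
A match describes letters and is no binding site by itself. The AP-1 letters TGACTCA were in the promoter of DDIT3 alone among the called-higher genes (12.5%), in 0 of 10 called-lower genes and in 2.43% of bright genes. The ER stress element core CCACG was in 3 of 8 (37.5%) and 5 of 10 (50%), against 51.2% of bright genes, and the TEAD letters GGAATG were in 0 of 8 and 0 of 10, against 10.2%. None of these motifs contains another.

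A driver and an inhibitor of the cell cycle were among the genes called higher, the driver on 1 of its 4 tested probe sets. CCND2 (200951_s_at), cyclin D2, which drives the step from G1 into S phase, read 8.98, 9.34 and 9.29 untreated and 11.16, 12.06 and 11.67 with tetracycline in the WT line. On the mutant arrays it gave 9.49, 9.38 and 9.4 untreated and 10.41, 9.93 and 9.36 with tetracycline, a scattered group that reached from the untreated level to about 1 above it. The difference of 1.95 ± 0.354 (adjusted p = 0.0494) was the highest of the bright calls, a 3.85-fold larger ratio, with a WT change of 2.43. Another bright CCND2 probe set gave -0.29 (adjusted p = 0.493), so the 2 bright sets of this gene disagree. That set was the brighter one, with a mean over the arrays of 11.89 against 10.04. The tested sets that were not bright gave -0.62 and -0.46, so only the called set was positive.

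CDKN1A (202284_s_at), the cyclin-dependent kinase inhibitor p21 that halts the cycle downstream of p53, read 10.65, 11.31 and 11 untreated and 12.23, 12.41 and 12.77 with tetracycline in the WT line. In the mutant line the values were 11.11, 11.2 and 11.37 and then 11.03, 11.3 and 11.43, which overlap fully. The difference was 1.45 ± 0.256 (adjusted p = 0.0485), with a mutant change of 0.03 (unadjusted p = 0.863).

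GFPT1, the enzyme that commits sugar to the hexosamine pathway for protein glycosylation, was called on 2 probe sets. On 202721_s_at it read 9.94, 9.92 and 9.75 untreated and 11.42, 12.17 and 11.66 with tetracycline in the WT line, and 10.43, 10.11 and 10.0 and then 10.63, 10.58 and 10.08 in the mutant line. On 202722_s_at the WT values were 10.62, 10.82 and 10.72 untreated and 11.87, 12.33 and 12.06 with tetracycline, and the mutant values ran from 10.76 to 11.09. Both sets put only the WT arrays with tetracycline apart, with differences of 1.63 ± 0.287 and 1.2 ± 0.193 (adjusted p = 0.0485 and 0.0405), and the gene's other bright sets gave 0.22 and 0.8.

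LGALS1 (201105_at), galectin-1, a secreted sugar-binding protein of adhesion and matrix contacts, changed its order between the lines. It read 9.28, 9.1 and 8.89 untreated and 10.73, 11.2 and 11.58 with tetracycline in the WT line, while the mutant line stayed between 9.87 and 10.27 on all 6 arrays. The untreated WT group was 0.87 below the untreated mutant group (WT minus mutant -0.87), and with tetracycline it was 1.03 above. The difference was 1.89 ± 0.272 (adjusted p = 0.0329), the second highest of the bright calls.

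FTL (212788_x_at), the ferritin light chain that stores iron, had the smallest difference in size and the smallest SE of the bright calls. It read 13.45, 13.29 and 13.46 untreated and 14.42, 14.43 and 14.35 with tetracycline in the WT line, and 13.17, 13.16 and 13.16 and then 13.4, 13.47 and 13.33 in the mutant line. The mutant groups did not overlap either, with a change of 0.24 (unadjusted p = 0.0197, adjusted p = 1), and the difference was 0.76 ± 0.128 (adjusted p = 0.0407). Its other bright set gave 0.87 (adjusted p = 0.057). FTL has many processed pseudogenes, and probe sets with the suffix x can bind related transcripts, so which copy was measured is uncertain.

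EIF1 (228967_at), a factor that helps the ribosome choose the start codon, read 8.63, 8.69 and 8.52 untreated and 9.99, 9.99 and 10.54 with tetracycline in the WT line, against 7.99 to 8.32 on the 6 mutant arrays. Its lowest group mean, 8.15, was just above the brightness limit. The gap of 1.29 to the other arrays came with a difference of 1.63 ± 0.269 (adjusted p = 0.0405), and its 5 other bright sets gave 0.49 to 1.1, each with an unadjusted p under 0.05. KRT10 (210633_x_at), an intermediate filament keratin, read 12.28, 12.41 and 12.29 untreated and 13.26, 13.52 and 13.55 with tetracycline in the WT line, and 11.91 to 12.25 in the mutant line. That left a gap of 0.85, a difference of 1.02 ± 0.171 (adjusted p = 0.0407) and values of 0.83 and 0.87 on its other bright sets.

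**Figure D2:**
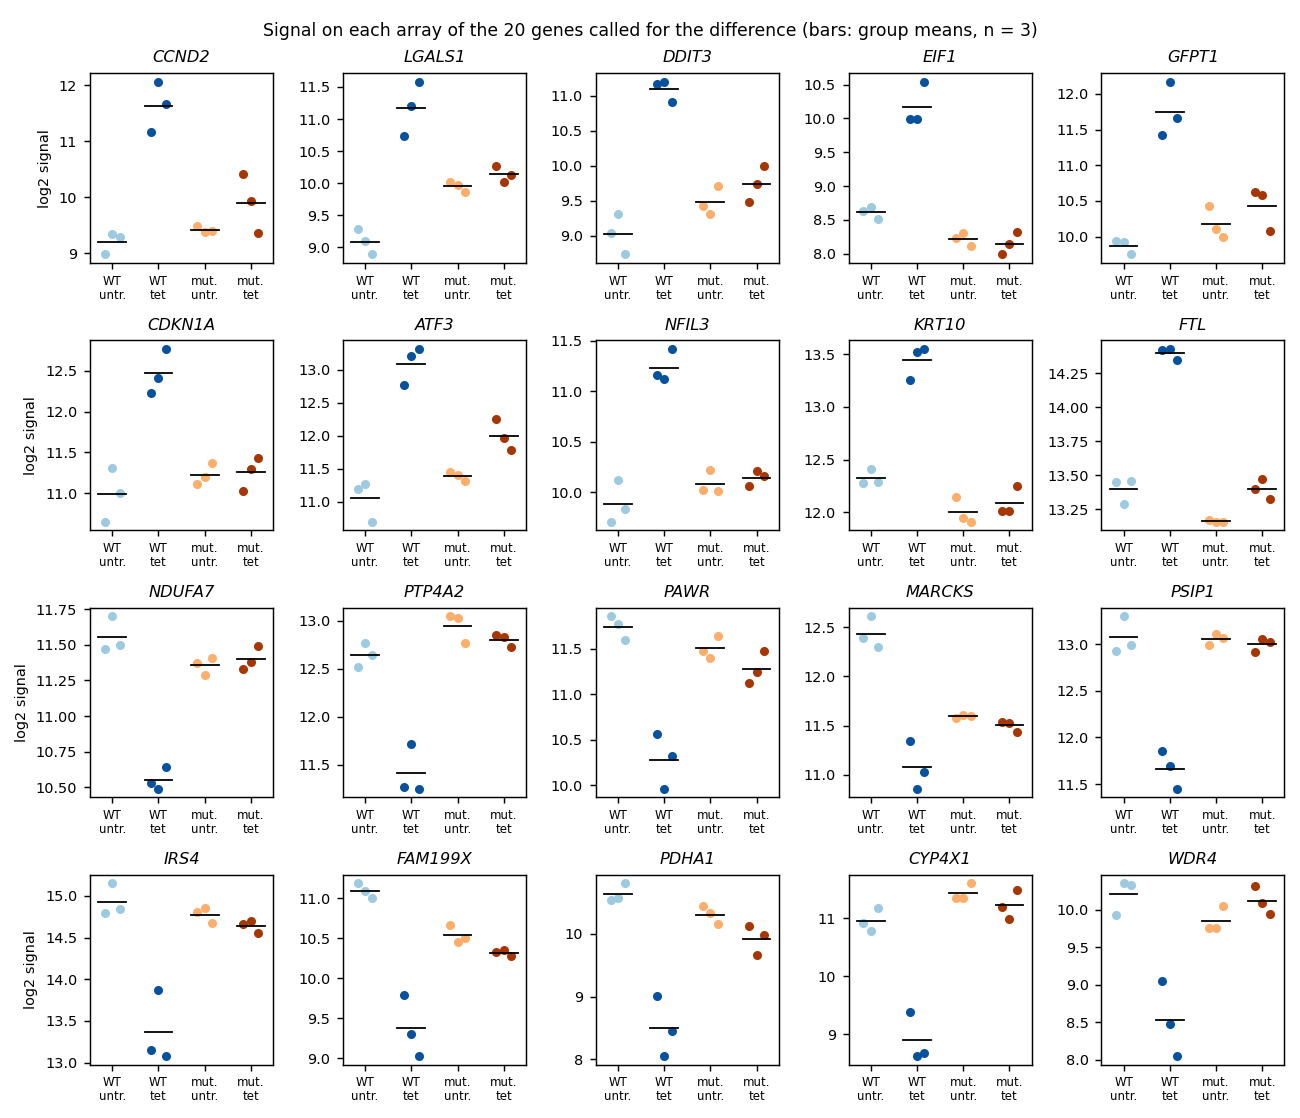
Log2 signal (vertical axis, its own range in each panel) of the 20 named genes called for the difference, 1 point per array and a bar at each group mean (n = 3), for the WT line (blue) and the mutant line (orange), untreated (pale) and with tetracycline (dark). In every panel the dark blue points lie apart from the other 9, and the orange points lie together in panels such as PSIP1 (12.92 to 13.11), while those of CCND2 scatter (9.36 to 10.41) and those of ATF3 form separate groups.

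On the lower side, 2 genes of mitochondrial energy metabolism were called. PDHA1 (200979_at), the catalytic subunit of pyruvate dehydrogenase, which feeds pyruvate into the citric acid cycle, read 10.55, 10.58 and 10.81 untreated and 9.01, 8.05 and 8.45 with tetracycline in the WT line. The mutant line read 10.44, 10.33 and 10.16 untreated and 10.12, 9.66 and 9.98 with tetracycline, all lower than its untreated arrays but by far less, and the mutant change of -0.39 had an unadjusted p of 0.0916. The difference was -1.76 ± 0.305 (adjusted p = 0.0485), while its other bright sets gave -0.40 and -0.28 with no unadjusted p under 0.05. NDUFA7 (202785_at), a subunit of respiratory complex I, read 11.47, 11.7 and 11.5 untreated and 10.53, 10.49 and 10.64 with tetracycline in the WT line, and 11.29 to 11.49 on the 6 mutant arrays. The mutant change was 0.04, and the difference was -1.05 ± 0.17 (adjusted p = 0.0405).

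Several signalling proteins were also called lower. IRS4 (1560652_at), the insulin receptor substrate that HEK cells express at high level, was separate on the WT arrays with tetracycline alone. It read 14.79, 15.15 and 14.84 untreated and 13.15, 13.87 and 13.08 with tetracycline in the WT line, and 14.55 to 14.85 across the mutant arrays. The WT arrays with tetracycline were 0.68 below all others and the difference was -1.42 ± 0.236 (adjusted p = 0.0405), but the gene's other bright set gave -0.13 (adjusted p = 0.935).

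MARCKS (225897_at), a membrane-bound substrate of protein kinase C that binds actin and calmodulin, read 12.39, 12.61 and 12.3 untreated and 11.34, 10.86 and 11.03 with tetracycline in the WT line. The mutant arrays read 11.44 to 11.61 throughout. The untreated WT group was thus 0.83 above the untreated mutant group and, with tetracycline, 0.43 below it (WT minus mutant -0.43), with a gap of only 0.11 to the nearest mutant array. The difference was -1.26 ± 0.191 (adjusted p = 0.0329), and its 4 other bright sets gave -0.68 to -0.1.

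PTP4A2 (216988_s_at), a small membrane-linked phosphatase of the PRL family, which binds the CNNM magnesium transporters, read 12.52, 12.77 and 12.65 untreated and 11.27, 11.72 and 11.25 with tetracycline in the WT line. The mutant line read 13.05, 13.03 and 12.77 and then 12.85, 12.83 and 12.73. Its difference was -1.09 ± 0.195 (adjusted p = 0.0492), and its 3 other bright sets gave -1.13 to -0.87, each with an unadjusted p under 0.05. On the set 208617_s_at the mutant change was -0.56 (unadjusted p = 0.0013, adjusted p = 1), beside a WT change of -1.61.

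PAWR (226223_at), a pro-apoptotic protein also called PAR-4, read 11.86, 11.77 and 11.6 untreated and 10.56, 9.96 and 10.32 with tetracycline in the WT line, and 11.12 to 11.64 in the mutant line. The groups of the mutant line overlapped, and the difference was -1.24 ± 0.227 (adjusted p = 0.0494). Its 3 other bright sets ranged from -0.56 to 0.35, so the sign was not shared by all sets of the gene.

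Among nuclear and RNA-linked proteins, PSIP1 (209337_at), the chromatin reader LEDGF, had the difference with the narrowest SE relative to its size. It read 12.93, 13.3 and 12.99 untreated and 11.86, 11.69 and 11.45 with tetracycline in the WT line. In the mutant line all 6 arrays lay between 12.92 and 13.11, and the WT arrays with tetracycline were 1.06 below every other array. The difference was -1.35 ± 0.182 (adjusted p = 0.0329), another set gave -1.15 (adjusted p = 0.0627) and a further one 0.33. WDR4 (226882_x_at), a subunit of a tRNA guanine methyltransferase, read 9.93, 10.35 and 10.33 untreated and 9.05, 8.47 and 8.05 with tetracycline in the WT line, and 9.75, 9.76 and 10.05 and then 10.32, 10.09 and 9.94 in the mutant line. Its mutant change was 0.26, opposite in sign to the WT change of -1.68 but with an unadjusted p of 0.265. The difference of -1.94 ± 0.32 (adjusted p = 0.0405) was the lowest of the bright calls, and its other bright set gave -2.06 (adjusted p = 0.0842).

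CYP4X1 (227702_at), a cytochrome P450, and FAM199X (225216_at) were called lower with WT changes of -2.06 and -1.72. CYP4X1 read 10.92, 10.78 and 11.17 untreated and 9.38, 8.63 and 8.68 with tetracycline in the WT line, and 10.98 to 11.6 in the mutant line. Its gap to the other arrays was 1.4, and the difference was -1.85 ± 0.285 (adjusted p = 0.0357). FAM199X read 11.19, 11.09 and 11.01 untreated and 9.79, 9.3 and 9.03 with tetracycline in the WT line, and 10.67, 10.46 and 10.51 and then 10.33, 10.35 and 10.28 in the mutant line. Its difference was -1.49 ± 0.243 (adjusted p = 0.0405), with 0.17 on its other bright set (adjusted p = 0.726). The probe sets 201660_at and 201661_s_at, which carry no symbol in the annotation used, gave -1.17 ± 0.207 and -1.25 ± 0.22 (adjusted p = 0.0485 each). On the first the WT arrays read 11.04, 11.04 and 10.95 untreated and 9.86, 9.43 and 9.36 with tetracycline, and the mutant arrays 11.18 to 11.7.

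A gene with several bright probe sets allows its calls to be set beside the further sets. Of the 20 named genes, 6 had no other bright set (LGALS1, DDIT3, CDKN1A, NFIL3, NDUFA7 and CYP4X1) and 14 had at least 1 that was not called. In EIF1, ATF3, KRT10, FTL, PTP4A2 and WDR4 all such sets went the same way with an unadjusted p under 0.05. In CCND2, IRS4, FAM199X and PDHA1 none did, and in GFPT1, PAWR, MARCKS and PSIP1 they were mixed. Probe sets of a gene can bind different transcript ends, and their positions were not used here.

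**Figure D3:**
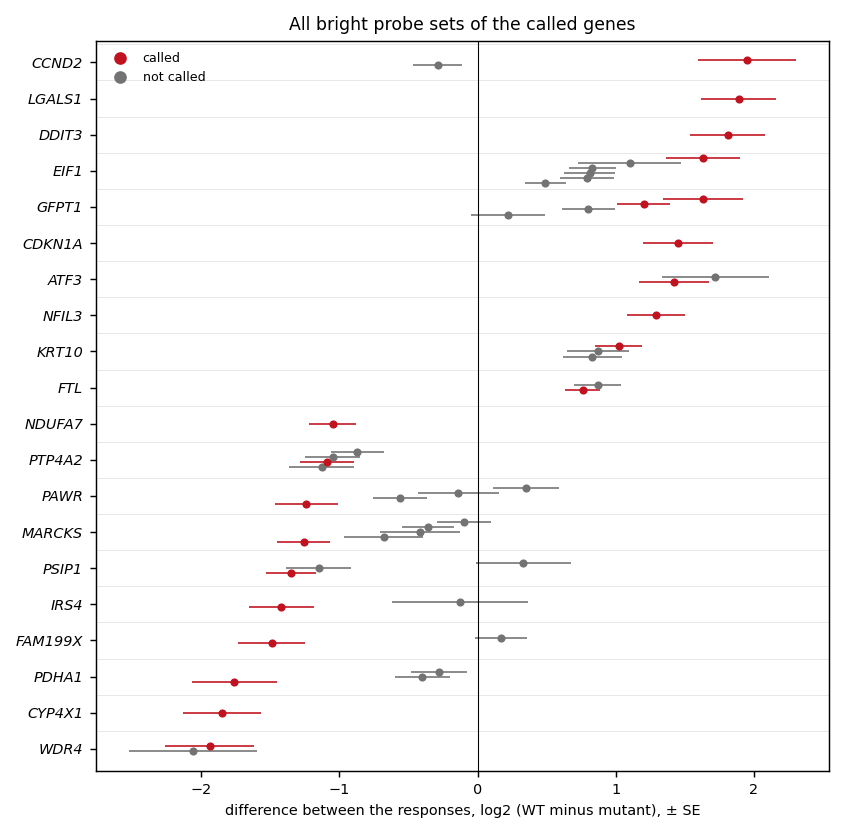
Difference between the responses (horizontal axis, log2, WT minus mutant, ± SE) for all bright probe sets of the 20 named genes, red where called and grey where not. The grey sets of KRT10, FTL, PTP4A2 and WDR4 lie beside the red ones, those of EIF1 lie on the same side but nearer 0 (0.49 to 1.1 against 1.63), and those of CCND2 (-0.29), IRS4 (-0.13) and FAM199X (0.17) lie near 0.

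Just outside the brightness limit were called probe sets with lowest group means under 8: MYOM2, a sarcomere protein, at 7.90 with a difference of -2.27, RBM26 at 7.87 with 1.74, the eIF2 phosphatase subunit PPP1R15A (202014_at) at 7.81 with 1.39 and PRMT2 at 7.78 with -1.73. Just inside were EIF1 at 8.15, PDHA1 at 8.50 and WDR4 at 8.52. The PPP1R15A set 202014_at also rose in the mutant line, from 8.57, 8.53 and 8.45 untreated to 9.71, 9.53 and 9.33 with tetracycline. That mutant change of 1.01 (limma, unadjusted p = 4.67e-05) was not called after adjustment, and the WT change was 2.4. In all, 18 of the 41 calls (43.9%) were not bright.

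The gene lists place these genes among others of their pathway. Each gene was represented by its brightest bright probe set. By this rule 11 of the 8928 bright genes were called, which is the share to set beside the calls in a list. The named genes CCND2, EIF1, KRT10, PTP4A2, PAWR, MARCKS, FAM199X, PDHA1 and WDR4 were called on a dimmer set only. Among all 8928 bright genes the median difference was -0.004, 725 (8.12%) had a positive difference and 787 (8.81%) a negative one at an unadjusted p under 0.05, and the WT arrays with tetracycline lay above the other 9 for 795 (8.9%) and below them for 590 (6.61%). Of 30 lists, 7 had a median above 0.2, 3 had a median below -0.2, and 20 lay between. No test of the lists was made, and the counts are set beside these shares. The lists were chosen with earlier results of these data known, so an excess over the shares is no independent support for a pathway.

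Of 25 bright genes of the integrated stress response, 22 had a positive difference, 13 of them at an unadjusted p under 0.05, none had a negative one at that level, and 2 (DDIT3 and ATF3) were called. The median difference was 0.47, from a median WT change of 0.75 and a median mutant change of 0.26. In 13 of the 25 the WT arrays with tetracycline lay above all others. PPP1R15A (37028_at), the GADD34 subunit that reverses eIF2 phosphorylation, read 8.25, 8.01 and 8.83 untreated and 9.98, 10.0 and 10.49 with tetracycline in the WT line. The mutant line gave 9.3, 9.41 and 9.13 and then 9.76, 9.95 and 9.44, starting above the WT line and almost touching its treated values. Its difference of 1.35 ± 0.318 did not pass (adjusted p = 0.0891). CEBPB, a C/EBP factor that pairs with ATF4, gave 0.91 ± 0.218 (adjusted p = 0.0918), with WT changes of 1.79 and 1.16 for the 2 genes. This was also the list with the largest mutant median of those plotted by array, at 0.31, 0.36 and 0.18 on the mutant arrays with tetracycline against 0.83, 0.57 and 0.71 on the WT arrays with tetracycline.

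The unfolded protein response had 16 of 21 bright genes above 0, 9 at an unadjusted p under 0.05 and none in the other direction at that level, none called, and a median of 0.33. XBP1, the factor spliced by the ER sensor IRE1, read 11.01, 11 and 10.96 untreated and 11.89, 12.04 and 12.15 with tetracycline in the WT line, and 10.8 to 11.25 in the mutant line. Its difference was 0.83 ± 0.182 (adjusted p = 0.0791), beside 0.89 for HERPUD1, a membrane protein of ER-associated degradation (adjusted p = 0.0873). The WT arrays with tetracycline were separate for both, and the changes in the WT line passed on their own at 1.04 and 1.08.

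Among 16 bright p53 targets 13 were above 0, 5 at an unadjusted p under 0.05 and none below 0 at that level, with CDKN1A called and a median of 0.43, or 0.31 with the mean of all bright sets of a gene. GADD45B, a stress sensor upstream of p38 and JNK, read 9.35, 8.25 and 8.99 untreated and 10.69, 10.2 and 10.64 with tetracycline in the WT line, and 8.28 to 9.18 in the mutant line. The untreated WT arrays spread over more than 1, and the difference of 1.61 ± 0.403 did not pass (adjusted p = 0.103). GADD45A gave 1.12 and the stress cytokine GDF15 gave 1.63 (adjusted p = 0.13 and 0.132). The medians of the list were 0.17, 0.32 and 0.32 on the WT arrays with tetracycline and -0.08, -0.06 and 0.02 on the mutant arrays with tetracycline.

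Immediate early genes and targets of the coactivator YAP had 12 of 14 above 0, 5 at an unadjusted p under 0.05, with 1 in the other direction, and a median of 0.43. CCN1, a secreted matrix protein and YAP target, read 9.7, 9.13 and 9.4 untreated and 10.56, 11.6 and 11.87 with tetracycline in the WT line, and 9.68 to 10.1 in the mutant line. Its difference was 1.79 ± 0.376 (adjusted p = 0.0708), beside 1.10 for the zinc finger factor KLF4 and 1.32 for KLF6 (adjusted p = 0.0895 and 0.151). The negative gene was MYC, the growth-promoting transcription factor, at -1.23 ± 0.318 (adjusted p = 0.113). It read 11.29, 12.31 and 11.5 untreated and 10.1, 10.61 and 10.17 with tetracycline in the WT line, and 11.19 to 11.72 in the mutant line, so the WT arrays with tetracycline were again the separate ones.

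Histone genes had the highest median, 1.04, but only 9 bright members, of which 6 were above 0 at an unadjusted p under 0.05 and none was called. H2BC12, a replication-linked H2B gene, read 12.47, 13.26 and 12.3 untreated and 13.81, 14.79 and 14.71 with tetracycline in the WT line, against 13.11 to 13.29 on the mutant arrays. Its difference of 1.78 ± 0.343 had an adjusted p of 0.0569. H1-2, a linker histone, gave 2.76 ± 0.789 (adjusted p = 0.139) with WT readings of 8.91, 10.18 and 9.04 untreated and 10.18, 12.64 and 13.32 with tetracycline. WT tetracycline replicate 1 was level with an untreated array there, and the WT groups overlapped. Histone genes are near-identical copies, so probe sets may not tell them apart, and 14 of the 18 genes of the list were on the array.

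**Figure D4:**
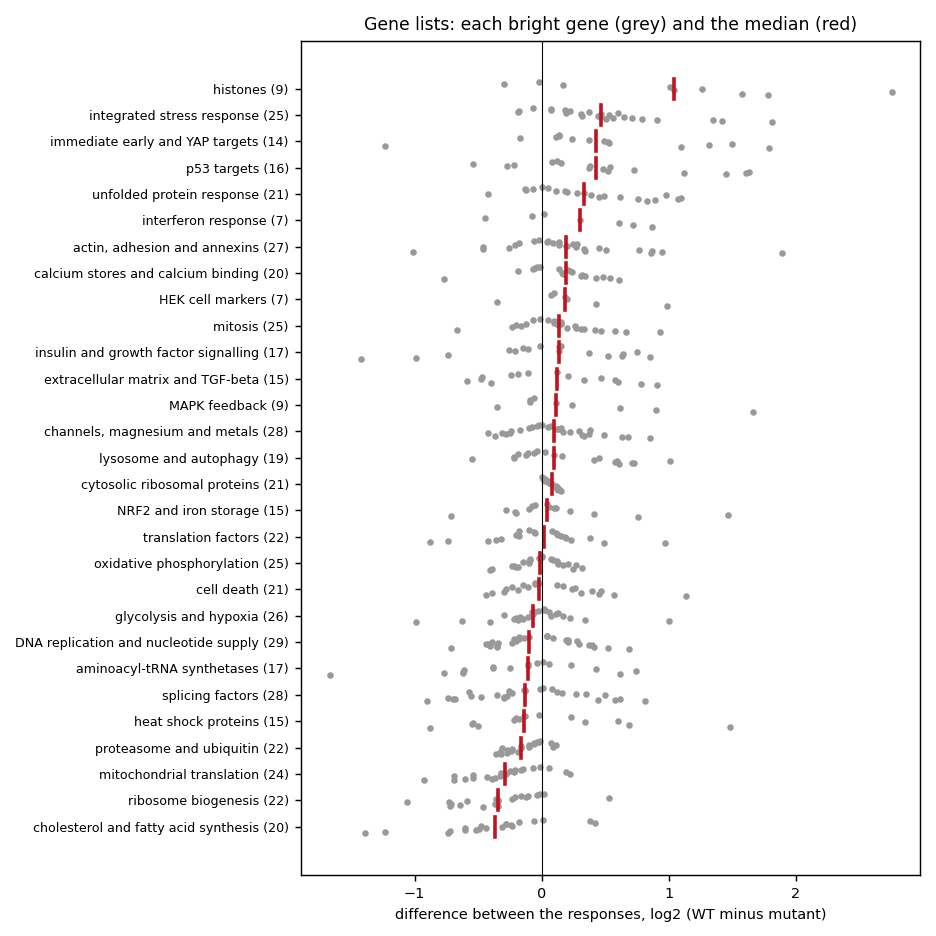
Difference between the responses (horizontal axis, log2, WT minus mutant) of each bright gene (grey points) in the gene lists with 5 or more bright genes, with the median in red and the number of bright genes in brackets. Histones (1.04) and the integrated stress response (0.47) have the highest medians, ribosomal proteins are packed between 0 and 0.15, and cholesterol and fatty acid synthesis has the lowest median (-0.37) with 1 set per gene.

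Genes of cholesterol and fatty acid synthesis had a median of -0.37, with 17 of 20 below 0, 5 of them at an unadjusted p under 0.05, none called and no positive gene at that level. LSS, lanosterol synthase, read 10.9, 11.18 and 11.78 untreated and 10.34, 9.41 and 9.5 with tetracycline in the WT line, and 12.08 to 12.34 in the mutant line. The WT line was below the mutant line on all arrays, and further below with tetracycline. Its difference was -1.39 ± 0.327 (adjusted p = 0.0891), beside -0.74 for the citrate-cleaving enzyme ACLY and -1.23 for the sterol enzyme NSDHL (adjusted p = 0.099 and 0.122). The sterol feedback gene INSIG1 went the other way at 0.42 (unadjusted p = 0.395). By array the medians were -0.45, -0.48 and -0.25 with tetracycline in the WT line, where untreated replicate 1 also stood at -0.36 and the other untreated arrays at 0.1 and 0.2. With the mean of all bright sets of a gene the list median was -0.25, above those of ribosome biogenesis (-0.35) and mitochondrial translation (-0.31), while with the brightest set it was the lowest of the lists.

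Mitochondrial translation genes had 21 of 24 below 0, 6 at an unadjusted p under 0.05 and none above 0 at that level, with a median of -0.29. TSFM, a mitochondrial elongation factor, gave -0.69 ± 0.194, the ribosomal protein MRPL12 gave -0.93 ± 0.277 and the elongation factor GFM1 gave -0.60, and none of these passed, the first at an adjusted p of 0.134. MRPL12 read 12.2, 11.88 and 12.5 untreated and 11.76, 10.88 and 11.29 with tetracycline in the WT line and 12.01 to 12.27 in the mutant line. Ribosome biogenesis genes, which make ribosomal RNA and assemble subunits in the nucleolus, had 20 of 22 below 0, 5 at an unadjusted p under 0.05, and a median of -0.34. The nucleolar protein NCL gave -0.34 and the RNA polymerase I subunit POLR1B -0.72. Here the medians by array were -0.07, -0.55 and -0.37 on the WT arrays with tetracycline and 0.14, -0.19 and 0.05 on the untreated ones, which overlap, so the WT groups of this list were not separate.

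**Figure D5:**
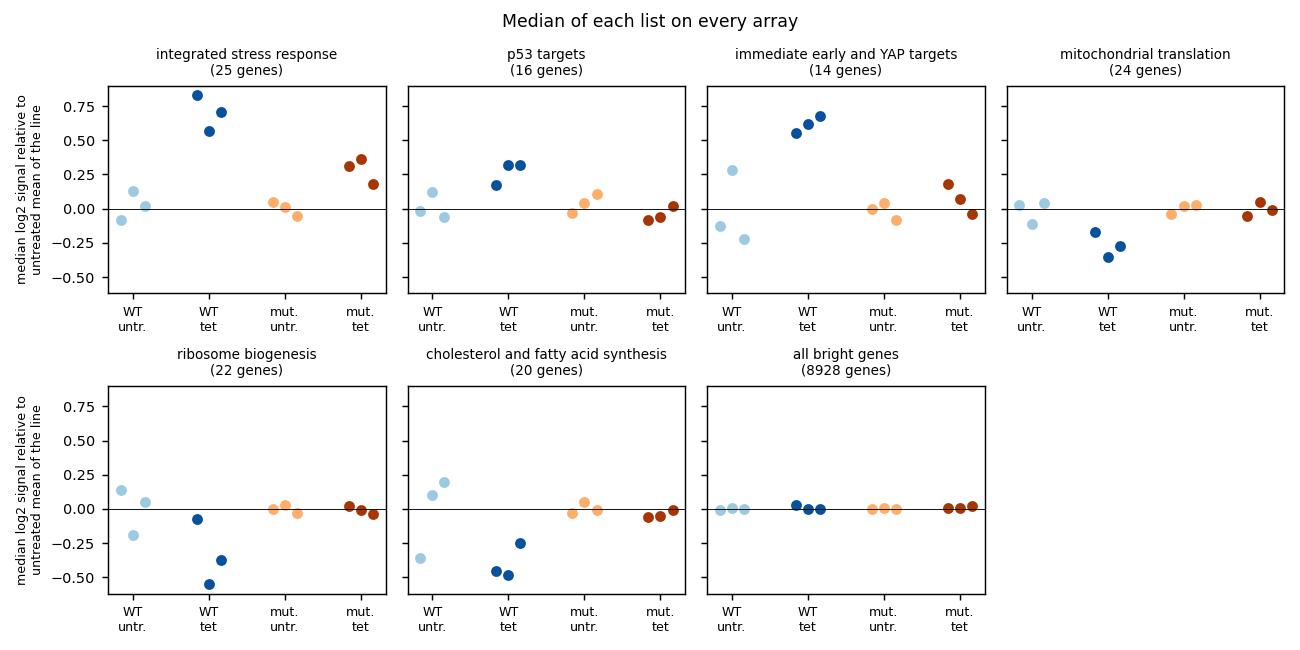
Median over the bright genes of a list of the log2 signal relative to the untreated mean of the same line (vertical axis), 1 point per array, for the 3 highest and 3 lowest lists with at least 10 bright genes and for all 8928 bright genes. The WT arrays with tetracycline stand highest for the integrated stress response (0.57 to 0.83) and lie at -0.35 to -0.17 for mitochondrial translation, the mutant arrays with tetracycline lie between -0.08 and 0.02 for p53 targets, and all bright genes lie at 0 on every array within 0.03.

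Other lists had medians between -0.2 and 0.3, some with more members past the unadjusted level than the background share. Among 28 genes of channels, magnesium and metal transport, the group closest to the function of TRPM7, 2 were above 0 at an unadjusted p under 0.05 and none below. All bright genes had 8.12% above and 8.81% below at that level, so this list showed no excess of either. The median of the list was 0.1. Its genes above 0 at that level are given as single values. CNNM4, a magnesium transporter, gave 0.85 (adjusted p = 0.236) and the zinc exporter SLC30A1 gave 0.63 (adjusted p = 0.305), and the WT arrays with tetracycline overlapped the others for both. Calcium store genes had a median of 0.19 with 4 of 20 above 0 and 1 below at an unadjusted p under 0.05. Actin, adhesion and annexin genes had a median of 0.19, with LGALS1 called, 7 of 27 above and 1 below at that level, and 8 with the WT arrays with tetracycline above all others, ANXA1 at 0.95 and the tropomyosin TPM1 at -1.01. The interferon list, with 7 bright genes, had a median of 0.3, with 3 above and none below at that level, and ISG15, an early interferon-induced modifier, gave 0.87.

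The lists of cell growth gave mixed values. Insulin and growth factor signalling had 3 above and 3 below 0 of 17 at an unadjusted p under 0.05, with IRS4 on the lower side, the receptor INSR at 0.85 and the binding protein IGFBP5 at -0.99. EIF4EBP1, a translation repressor and ATF4 target, gave 0.97 ± 0.187 (adjusted p = 0.0569), while the list of 22 translation factors had a median of 0.02. The 17 aminoacyl-tRNA synthetases, several of them ATF4 targets, had a median of -0.11, with 3 above and 5 below at that level. RARS1, which charges arginine, was the lowest, with -1.67 ± 0.359 (adjusted p = 0.075). In the WT line it read 12.79, 12.38 and 13.48 untreated and 11.6, 10.82 and 10.69 with tetracycline, below all mutant arrays at 12.58 to 13.08. Mitosis genes had a median of 0.14, and the proliferation marker MKI67 gave 0.93 (adjusted p = 0.113).

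Of the remaining lists, the MAPK feedback phosphatase DUSP1 gave 1.66 (adjusted p = 0.139) in a list with a median of 0.11, the matrix protease inhibitor TIMP1 gave 0.91 (adjusted p = 0.0617) in a list at 0.12, and lysosome and autophagy genes had 5 of 19 above and none below at an unadjusted p under 0.05. NRF2 and iron storage genes had a median of 0.04, with FTL called and heme oxygenase HMOX1 at 1.47 (adjusted p = 0.15). TNFRSF12A, a TNF receptor family member, read higher on every array with tetracycline than on the untreated arrays of the same line, in both lines. It read 9.17, 9.44 and 8.04 untreated and 11.1, 11 and 11.06 with tetracycline in the WT line, and 8.57, 8.42 and 8.17 and then 9.57, 9.41 and 9.28 in the mutant line. Its mutant change of 1.03 had an unadjusted p of 0.00176 and an adjusted p of 1, and the difference of 1.14 ± 0.384 did not pass (adjusted p = 0.2), in a cell death list with a median of -0.02.

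The lists of constitutive functions had medians between -0.16 and 0.08. Oxidative phosphorylation had a median of -0.01 and no gene of 25 at an unadjusted p under 0.05 in either direction, NDUFA7 not being among its members. The 21 cytosolic ribosomal proteins ran from -0.0 to 0.15 with 20 above 0 and none at that level, and quantile normalization turned their median from 0.08 to -0.02. Proteasome and ubiquitin genes were at -0.16, with 19 of 22 below 0 and 1 of them at that level. Heat shock proteins were at -0.14, with 2 above and 3 below of 15 at that level, among them HSPB8 at 1.48 and DNAJB1 at -0.88, and at -0.21 with the mean of all bright sets. Splicing factors were at -0.13, with 4 above and 6 below of 28 at that level, and DNA replication genes at -0.1, with 3 above and 1 below of 29. Quantile normalization moved no list median by more than 0.1 and turned the sign of 3, ribosomal proteins, translation factors and cell death, all within 0.1 of 0.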

How the data were processed

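Total RNA of 12 samples was measured on Affymetrix arrays. The authors deposited linear MAS5 signals, which are probe set intensities, as the submitters' processing notes name the tool. The MAS5 version and settings are not given in the sources used here. The deposited intensities had a trimmed mean (2% at each end) of 500 on every array. The number of arrays limits the precision. Values under 1 (2211, or 0.337%) were set to 1 and log2 was taken. Of the table, 0 columns were unused.

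A total of 62 AFFX controls were left out, and probe sets with their highest group mean above the median of the table, 6.39, were tested (29553). All 12 arrays entered a limma 3.58.1 model in R 4.3.3 with a mean per group, eBayes with trend, and the contrast WT change minus mutant change, with Benjamini-Hochberg adjustment over all tested probe sets, 2-sided. Replicate numbers were not used as pairs. Gene symbols came from the platform annotation (41097 probe sets with 1 symbol, 1801 with several, 11721 with none), and promoters from RefSeq. The fit was tested on simulated data with independent arrays and 1 spread per probe set for all groups. It therefore did not check the unequal spread of the lines or a pairing of arrays. Control signals were compared by exact permutation over 400 relabellings within lines. Plots used matplotlib 3.10.9 (Python 3.11.15).

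Named genes were the called bright genes (up to 15 on each side, 1 probe set a gene), up to 4 genes per list with the smallest p, and TRPM7; INSIG1 and genes outside the brightness limit or just past the threshold were named after their values were seen. The members and the 30 lists were chosen with earlier results of these data known. Alternatives were other filters, quantile normalization, an added offset of 16, eBayes without trend, array weights, a replicate block or replicate 3 term, left-out arrays and other brightness limits.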

Additional observations from a re-analysis of the deposited data

Results flagged for a closer look

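The 23 called probe sets are those for which the response differed between the lines by a test of the difference itself, the limma contrast. With higher values in the WT line were CCND2 (1.95), LGALS1 (1.89), DDIT3 (1.81), EIF1 (1.63), GFPT1 (1.63 and 1.2), CDKN1A (1.45), ATF3 (1.42), NFIL3 (1.29), KRT10 (1.02) and FTL (0.76). With lower values were WDR4 (-1.94), CYP4X1 (-1.85), PDHA1 (-1.76), FAM199X (-1.49), IRS4 (-1.42), PSIP1 (-1.35), MARCKS (-1.26), PAWR (-1.24), PTP4A2 (-1.09), NDUFA7 (-1.05) and the unnamed probe sets 201661_s_at (-1.25) and 201660_at (-1.17). All values are log2, the WT change minus the mutant change. In EIF1, ATF3, KRT10, FTL, PTP4A2 and WDR4 the other bright probe sets of the gene went the same way, and in CCND2, IRS4, FAM199X and PDHA1 they did not at an unadjusted p under 0.05.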

How the results depend on the processing

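The count of bright probe sets called for the difference, 23, was 5 with no filter (LGALS1, DDIT3, PSIP1, MARCKS and CYP4X1), 69 with the stricter filter at 8.92, 47 with the offset of 16, 9 with quantile normalization, 0 by limma's eBayes without trend (2087 at an unadjusted p under 0.05), 104 with array weights by line, 1712 with weights per array, 0 without the replicate 3 arrays (976 at an unadjusted p under 0.05), and 35 with brightness taken from the mean over 12 arrays. Leaving out each array gave 0 to 1881, and 3 were called without WT tetracycline replicate 2 (PSIP1, IRS4 and PTP4A2). The cause was not tested, beyond the fewer arrays or other sets of probe sets that an alternative enters. For the WT change, 3265, the count was 1672 with weights by line, 351 without the replicate 3 arrays and 1781 to 5302 with an array left out. For the mutant change, 0, it was 1 with weights by line (EMP3) and 3 with weights per array (EMP3, ASNS and CTH), and 0 under every other alternative run. With a replicate block over all groups 51 were called for the difference, all 23 among them. Same-numbered arrays of a line correlated in their deviations at 0.475, 0.51 and 0.094 in the WT line and 0.419, 0.217 and 0.576 in the mutant line, and at 0.1 or less across lines, so 5 of 18 pairs were above 0.1 and the numbers may pair arrays within a line. A block within each line, chosen after seeing the data, called 393 for the difference and 5276 for the WT change. Of 529 values of single probe sets under 23 alternatives, 222 passed, 307 did not and 0 changed sign. A change of sign was hardly possible, since several alternatives leave the difference as it is and the probe sets were selected on the same arrays.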

Other observations

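Of the 18 called probe sets outside the brightness limit, 5 are given here, chosen after their values were seen. SRI, sorcin, a calcium-binding protein that modulates calcium release channels, read 9.5, 9.91 and 10.09 untreated and 7.43, 6.83 and 6.78 with tetracycline in the WT line, and 9.89, 9.86 and 9.88 and then 9.22, 8.89 and 9.43 in the mutant line. It fell in the WT line, with a change of -2.82, the mutant change was -0.69, and the difference was -2.12 ± 0.311 (limma, adjusted p = 0.0329). NPR1, the receptor for atrial natriuretic peptide, read 6.99, 7.56 and 7.14 untreated and 4.61, 4.78 and 4.61 with tetracycline in the WT line, and 7.0 to 7.78 in the mutant line, a difference of -2.98 ± 0.447 (adjusted p = 0.0329). Its WT signals with tetracycline are below 6.39, the median of the table, so the size of this difference is uncertain. CD44, a receptor for hyaluronan, gave 1.77 ± 0.323 (adjusted p = 0.0494), with 9.05, 8.99 and 9.04 on the WT arrays with tetracycline and 6.87 to 8.3 on the others. RGS5, an inhibitor of G protein signalling, also gave 1.77.

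The largest difference in size among the 41 calls, 3.73 ± 0.605 (adjusted p = 0.0405), belonged to IFI27, an interferon-induced gene. It read 3.62, 3.88 and 2.72 on the untreated WT arrays, 7.83, 7.26 and 7.12 on the WT arrays with tetracycline, and 6.75 to 7.61 on all 6 mutant arrays. Only the untreated WT arrays stood apart, and with tetracycline the lines differed by 0.03. Its untreated WT signals are below the median of the table, where the array gives little precision. Among bright probe sets just past the threshold were TM9SF3 at -2.10, the smooth muscle actin ACTA2 at 1.28, the dystrophin gene DMD at -1.09 and the scavenger receptor SCARB1 at -1.21 (adjusted p = 0.0523 to 0.0569).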
